A study of Mus musculus with 12 samples.

Results

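The liver X receptors and the lipid handling genes that lie around them were followed in mouse bone marrow-derived macrophages (BMMs). The set holds 9 of the 38887 genes in the deposited tables and was chosen by name, for function. It comprises the receptor genes Nr1h3 and Nr1h2, the exporter genes Abca1 and Abcg1, and Apoe, Mylip, Lpl, Plin2 and Fabp4. RNA-Seq covered 12 libraries, 3 for each of 4 groups, from WT and IGF2BP2 KO BMMs that were left untreated (M0) or received 20 ng/ml IL-4 during 8 h (M2). Bone marrow came from mice aged 3 to 4 months and was grown for 6 days with 50 ng/ml M-CSF. In KO mice, loxP sites flank exons 4 and 5 of Igf2bp2, and Cre recombinase is made from the Lyz2 locus, which is active in myeloid cells. WT littermates had no floxed allele and came with or without Cre. Which WT libraries carried Cre is not given in the sources used here, so that Cre and the deletion cannot be told apart. IGF2BP2 is an RNA-binding protein that recognizes m6A-modified transcripts.

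Liver X receptors are nuclear receptors that bind oxysterols and act on DNA as heterodimers with retinoid X receptors. In macrophages they are known for switching on cholesterol export when sterol accumulates, through the transporters ABCA1 and ABCG1 and the acceptor apolipoprotein E. They also raise Mylip, also called Idol, a ubiquitin ligase that limits lipoprotein uptake, and Lpl, the lipase that frees fatty acids from lipoproteins. Plin2 coats lipid droplets and Fabp4 carries fatty acids in the cytosol, and both are classical targets of the related PPAR receptors.

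Total counts lay between 20011792 and 29832430 in the WT libraries and between 26568719 and 39632770 in the KO libraries. Igf2bp2 counts of the whole gene, which include the exons that remain, gave a log2 fold change in KO of -0.11 in M0 (edgeR adjusted p = 0.656) and -0.65 in M2 (edgeR adjusted p = 0.0285), while Lyz2 fell by 8.30 and 8.57. The summed level of 9 macrophage markers was 4070 to 5080 TPM in all libraries, and that of 7 IL-4 response genes was 69.3 to 135 TPM in M0 and 6620 to 8460 TPM in M2. The 7 adipocyte markers summed to at most 2.0 TPM, with Plin1, Cfd, Lep, Cidea and Pck1 at 0 in every library. In bulk RNA, fewer cells of a type and less RNA per cell cannot be told apart.

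Liver X receptors bind paired AGGTCA half-sites spaced by 4 bases (DR4), whereas PPAR receptors bind pairs spaced by 1 base (DR1). To show what such an element looks like in these genes, RefSeq promoter windows on GRCm38.p6, from 250 bases before to 50 bases after a gene's start, were searched on both strands. They were found for 6 of the 9 genes, with 9 windows in all. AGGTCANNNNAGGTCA was present in 0 of these windows with up to 2 mismatches among its 12 fixed letters, where 3.02% of all 32851 windows hold such a match. With up to 3 mismatches it was present in 1 window, that of Abca1, against 21.9% of all windows. The DR1 motif AGGTCANAGGTCA, which shares its half-sites with DR4, was present with up to 2 mismatches in 1 window, that of Plin2, against 3.86% of all windows, and with up to 3 mismatches in 2 windows, against 24.6%. Both matches are printed on the strand that reads AGGTCA, with the match in capitals. They describe letters in a window and not binding.
Abca1, DR4, starting 67 bases before the gene's start, at chr4:53159940-53159969: agcgccgGGGTTACTACCGGTCAaacgctg
Plin2, DR1, starting 225 bases before the gene's start, at chr4:86670264-86670292: tctgacttAGGTCAGGGGTCCtgaaagct
Both genes lie on the minus strand, and in both the motif reads in the direction opposite to the gene. The distances are counted along the gene, to the end of the match farthest upstream. That end is the last capital letter as printed.

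The levels of the 9 genes spanned a wide range. TPM, which divides by transcript length, allows genes to be ranked against each other. In WT M0 the order was Lpl (3551 ± 559 TPM, mean ± SD, n = 3), Plin2 (2273 ± 175), Apoe (981 ± 581), Nr1h2 (80.2 ± 3.72), Fabp4 (26.6 ± 1.65), Abca1 (17.3 ± 5.92), Abcg1 (16.1 ± 3.45), Nr1h3 (13.8 ± 2.42) and Mylip (13.1 ± 3.27). Neighbours down to Abca1 did not overlap between libraries, while Abca1, Abcg1, Nr1h3 and Mylip each overlapped the next. Averaged over 12 libraries, only 14 of the 12845 other fitted genes stood above Lpl and 36 above Plin2. In KO M0 the first 5 places were the same, followed by Abcg1 (20.06 ± 1.497), Nr1h3 (14.1 ± 1.44), Abca1 (10.4 ± 0.946) and Mylip (10.3 ± 0.680), of which only the last pair overlapped. After IL-4, Abcg1 climbed to the fifth place in WT (72.1 ± 7.59) and to the fourth in KO (89.8 ± 13.0), where it overlapped Nr1h2 (86.3 ± 2.52). Abca1 (4.77 ± 0.804) and Nr1h3 (4.70 ± 0.105) became the lowest in WT M2 and overlapped, while in KO M2 Nr1h3 (5.20 ± 0.367) stood above Abca1 (3.64 ± 0.915) without overlap.

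**Figure D1:**
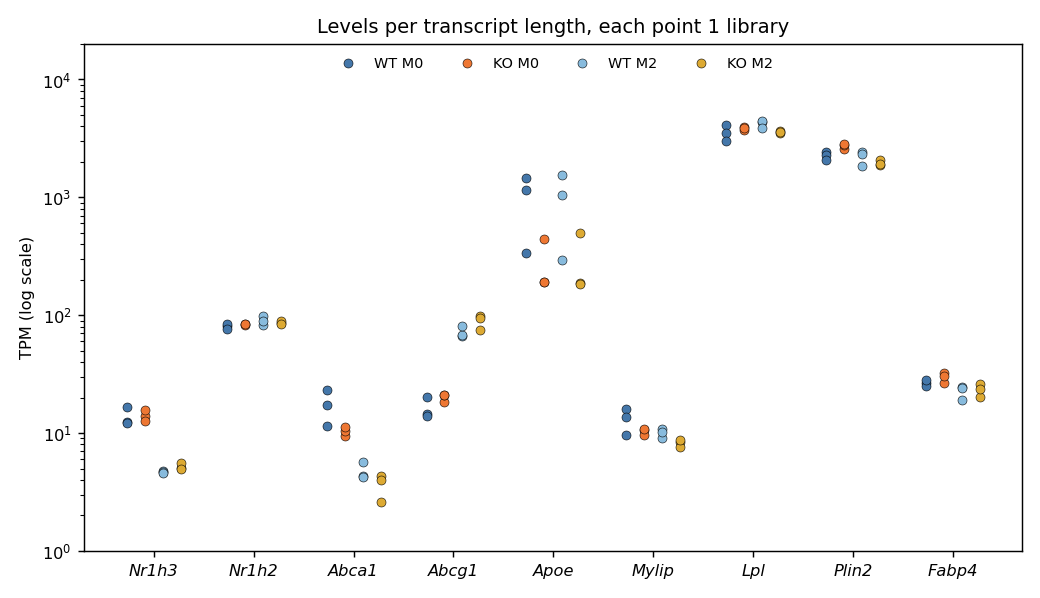
TPM of the 9 genes on a logarithmic axis, with 1 point per library and 4 colours for the groups. Lpl and Plin2 lie highest in every group, Abcg1 rises and Abca1 and Nr1h3 fall with IL-4, and Apoe is spread widely within each group.

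With IL-4, Abcg1 and Nr1h2 rose and Abca1 and Nr1h3 fell in both genotypes, while Lpl was called higher in WT and Plin2 lower in KO. To ask how IL-4 acts on the set, M2 was compared with M0 within each genotype by edgeR's quasi-likelihood test on counts, with Benjamini-Hochberg adjustment over 12846 genes. Genes with an adjusted p below 0.05 are referred to as called. In WT, 5 of the 9 genes were called, 3 higher and 2 lower, where 50% of all genes were called, 24.9% higher and 25.1% lower. In KO, 5 of the 9 were called, 2 higher and 3 lower, where 52.8% of all genes were called, 26.8% higher and 26% lower. The shares are near the background in both genotypes. The summed level of 6 endothelial markers also moved with IL-4, from 27.1 to 35.1 TPM in M0 up to 79 to 99.2 TPM in M2. Its members went both ways. In both genotypes Vwf and Pecam1 rose and Cdh5 and Kdr fell, each without overlap, while Egfl7 overlapped. Cdh5 and Tek were under 1 TPM in every library. The summed level of 4 osteoclast markers was also higher in M2 in each genotype, without overlap. Of these, Calcr was at 0 and Ctsk overlapped. The part of such cells in the changes with IL-4 was not tested. The libraries did not overlap for 5 genes in WT and 6 in KO, against 55.2% of all genes in WT (27.9% higher, 27.3% lower) and 63.4% in KO (32.1% higher, 31.3% lower). Values per library are CPM, the count scaled to library size by the TMM method, given for libraries 1, 2 and 3 of a group.

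Nr1h3 (ENSMUSG00000002108) encodes LXRα and lies at chr2:91184061-91202834 of GRCm38 on the minus strand. Its values were 12.7, 11.2 and 11.2 CPM in WT M0 and 4.54, 3.61 and 3.37 CPM in WT M2. KO libraries had 12.2, 11.9 and 11.5 CPM in M0 and 3.88, 4.53 and 3.77 CPM in M2. Every M2 library lay below every M0 library, while the genotypes overlapped in both states. IL-4 lowered Nr1h3 3.04-fold in WT (log2 fold change -1.60, SE 0.12, edgeR adjusted p = 1.93e-07) and 2.91-fold in KO (-1.54, SE 0.11, 1.41e-07). Nr1h3 overlaps Gm13783 on its strand and Gm23390 on the other, and how such reads were assigned is not given in the sources used here. It was read from 66 to 450 counts per library.

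Nr1h2 (ENSMUSG00000060601) encodes LXRβ and lies at chr7:44549616-44553951 on the minus strand. Its values were 70.3, 70.8 and 71.3 CPM in WT M0 and 83.1, 76.2 and 79.4 CPM in WT M2. For KO, they were 73.3, 74.0 and 75.4 CPM in M0 and 89.2, 81.6 and 78.5 CPM in M2. The M2 libraries lay above the M0 libraries in each genotype, by a small margin. The log2 fold change was 0.17 in WT (SE 0.05, edgeR adjusted p = 0.0174) and 0.16 in KO (SE 0.05, 0.0178). Without library 1 of WT M2 the adjusted p was 0.075, and in KO it was 0.0651 without library 1 of M0 and 0.0668 without library 1 of M2. On the TPM scale the KO value was 0.05 (limma adjusted p = 0.55), and without a filter on low counts the edgeR adjusted p was 0.0554, so that 5 of 8 other settings kept the KO call.

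The ratio of Nr1h2 to Nr1h3 in TPM therefore shifted. It went from 4.89 to 6.68 in M0 up to 17.6 to 20.5 in M2 for WT, and from 5.3 to 6.64 up to 15.8 to 17.0 for KO. The genotypes overlapped in M0, whereas in M2 the 3 WT ratios lay above the 3 KO ratios. For one such ratio, exact permutation of 3 against 3 libraries cannot yield a p below 0.1. TPM also depends on the estimated transcript length, which for Nr1h3 in M2 was 1349 to 1719 bases in WT and 1334 to 1482 in KO. On counts, the log2 fold change in KO M2 was 0.06 for Nr1h2 (edgeR adjusted p = 0.542) and 0.08 for Nr1h3 (0.774). The counts thus show no such separation of the genotypes. Of the partners of these receptors, Rxrb had a value of 0.11 on the log2 scale in WT (edgeR adjusted p = 0.0793) and rose by 0.18 in KO (0.00682). For Rxra the values were -0.23 (0.305) and -0.30 (0.154).

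Abca1 (ENSMUSG00000015243) moves cholesterol and phospholipid onto lipid-poor apolipoprotein A-I and lies at chr4:53030787-53159895 on the minus strand. Its values were 128, 95.8 and 67.3 CPM in WT M0 and 33.5, 25.8 and 24.4 CPM in WT M2. The KO values were 52.6, 59.1 and 64.3 CPM in M0 and 16.2, 25.3 and 23.6 CPM in M2. The M2 libraries lay below the M0 libraries in each genotype. IL-4 lowered Abca1 3.47-fold in WT (log2 fold change -1.80, SE 0.22, edgeR adjusted p = 1.98e-05) and 2.69-fold in KO (-1.43, SE 0.22, 0.000109).

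Abcg1 (ENSMUSG00000024030) passes cholesterol on to larger HDL particles and lies at chr17:31057675-31117988 on the plus strand. Its values were 38.2, 28.0 and 28.2 CPM in WT M0 and 137, 140 and 164 CPM in WT M2. KO libraries had 35.6, 41.4 and 41.3 CPM in M0 and 162, 201 and 196 CPM in M2. It was the member with the largest rise, 4.66-fold in WT (log2 fold change 2.22, SE 0.13, edgeR adjusted p = 1.79e-08) and 4.72-fold in KO (2.24, SE 0.13, 1.38e-08). Abcg1 overlaps the small gene Gm25447 on its strand.

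The 2 exporters thus moved in opposite directions, and the calls of both were kept in all 6 fits without 1 library in each genotype. In TPM, the ratio of Abcg1 to Abca1 was 0.864, 0.844 and 1.21 in WT M0 and 1.95, 2.02 and 1.85 in KO M0. After IL-4 it was 11.8, 15.7 and 18.9 in WT and 28.8, 22.9 and 23.8 in KO. The 4 groups did not overlap on this ratio, with KO above WT in either state, but here too 3 against 3 libraries cannot give an exact permutation p below 0.1, and in M2 neither gene was called between the genotypes.

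**Figure D2:**
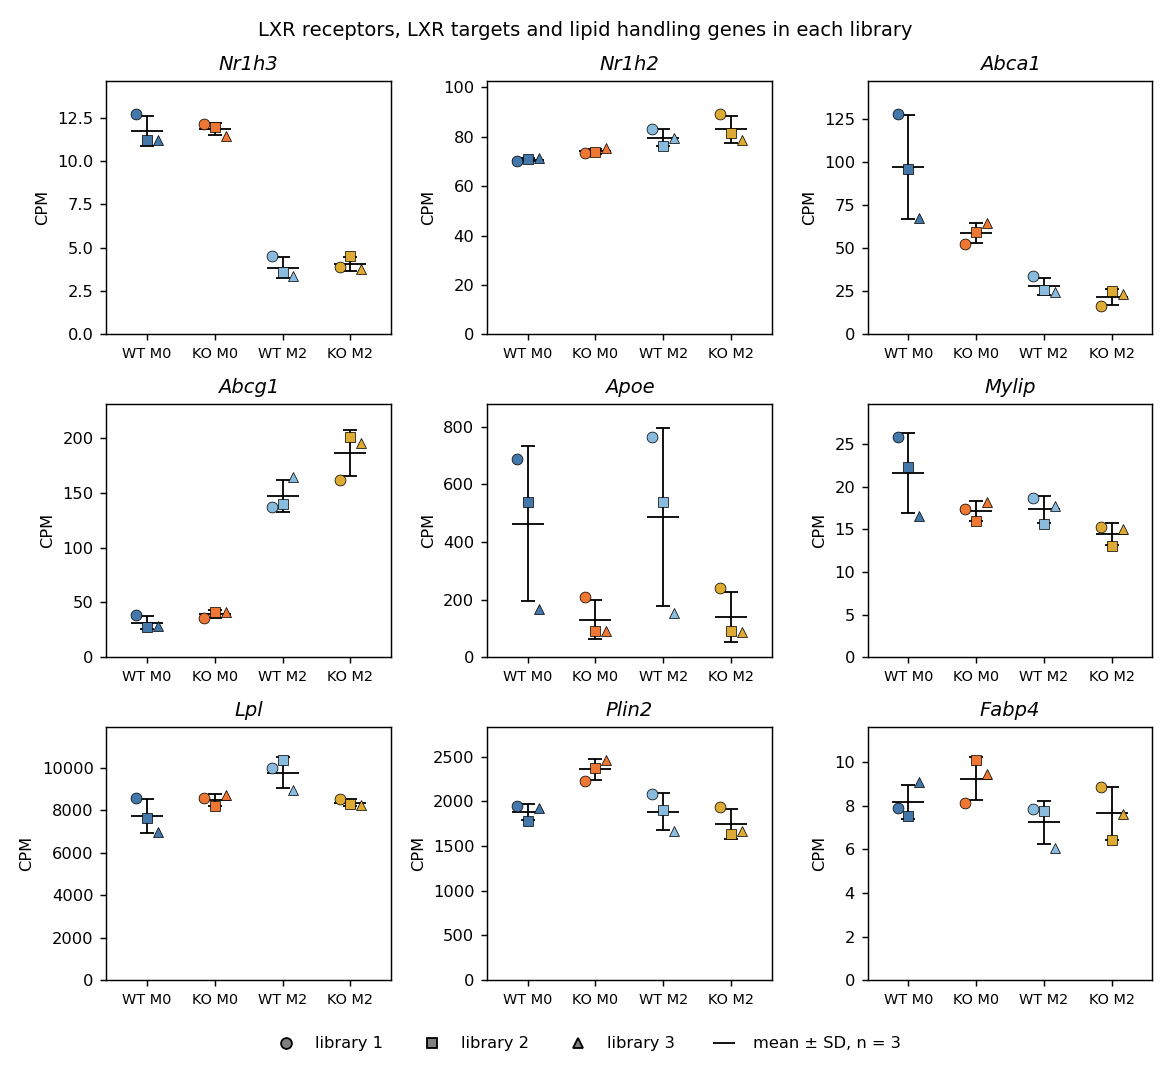
CPM of each gene in the 12 libraries, on linear axes from 0, with the library number as the symbol and the mean ± SD (n = 3) in black. Nr1h3 and Abca1 fall and Abcg1 rises with IL-4 in both genotypes, and for Apoe the libraries of number 1 stand above those of number 3 in every group.

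Apoe (ENSMUSG00000002985), the apolipoprotein that accepts exported cholesterol, lies at chr7:19696109-19699188 on the minus strand. Its values were 687, 537 and 167 CPM in WT M0 and 764, 538 and 153 CPM in WT M2. For KO, they were 209, 90.1 and 91.2 CPM in M0 and 241, 90.6 and 88.6 CPM in M2. Libraries of the same genotype and number were close to each other, whereas the highest and the lowest library differed 7.63-fold in M0 and 8.62-fold in M2. Within pairs the log2 change with IL-4 lay between -0.12 and 0.15 in WT and between -0.04 and 0.20 in KO. The fit without pairs gave 0.06 (SE 0.61, edgeR adjusted p = 0.942) in WT and 0.11 (SE 0.62, 0.903) in KO. With the pairs as a block the values were 0.02 (SE 0.06, 0.852) and 0.06 (SE 0.06, 0.428).

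Mylip (ENSMUSG00000038175), the ubiquitin ligase, lies at chr13:45389742-45412022 on the plus strand. Its values were 25.8, 22.3 and 16.6 CPM in WT M0 and 18.6, 15.6 and 17.7 CPM in WT M2. The KO values were 17.4, 15.9 and 18.1 CPM in M0 and 15.3, 13.0 and 15.1 CPM in M2. The WT libraries overlapped through library 3 of M0, and the KO libraries did not overlap. The log2 fold change was -0.32 in WT (SE 0.14, edgeR adjusted p = 0.0708) and -0.25 in KO (SE 0.13, 0.139). In WT it was called with the pairs as a block (-0.31, edgeR adjusted p = 0.0327) and without library 3 of M0 (-0.47, edgeR adjusted p = 0.00226). In KO it was called with only the M0 and M2 libraries of KO fitted (-0.26, edgeR adjusted p = 0.0271).

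Lpl (ENSMUSG00000015568) lies at chr8:68880491-68907448 on the plus strand. Its values were 8582, 7617 and 6964 CPM in WT M0 and 10010, 10370 and 8936 CPM in WT M2. KO libraries had 8567, 8181 and 8724 CPM in M0 and 8528, 8292 and 8256 CPM in M2. In WT each M2 library lay above the M0 libraries, while in KO the states overlapped. IL-4 raised Lpl 1.27-fold in WT (log2 fold change 0.34, SE 0.07, edgeR adjusted p = 0.00147), and in KO the value was -0.02 (SE 0.07, 0.815). The WT call was kept in all 6 fits without 1 library.

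Plin2 (ENSMUSG00000028494) lies at chr4:86648386-86670060 on the minus strand. Its values were 1943, 1777 and 1923 CPM in WT M0 and 2084, 1904 and 1666 CPM in WT M2. For KO, they were 2232, 2378 and 2463 CPM in M0 and 1934, 1636 and 1663 CPM in M2. The WT states overlapped, whereas in KO each M2 library lay below the M0 libraries. The log2 fold change was 0.00 in WT (SE 0.08, edgeR adjusted p = 0.982), and Plin2 fell by 0.43 in KO (SE 0.08, 0.000712), a call kept in all 6 fits without 1 library.

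Fabp4 (ENSMUSG00000062515) lies at chr3:10204088-10208576 on the minus strand and had only 119 to 381 counts per library. Its values were 7.89, 7.56 and 9.08 CPM in WT M0 and 7.86, 7.78 and 6.08 CPM in WT M2. The KO values were 8.16, 10.1 and 9.49 CPM in M0 and 8.89, 6.44 and 7.64 CPM in M2. The states overlapped in both genotypes. The log2 fold change was -0.17 in WT (SE 0.14, edgeR adjusted p = 0.349) and -0.28 in KO (SE 0.14, 0.098), which was 0.0331 without library 1 of KO M2. On the TPM scale limma called the KO value, with -0.35 (limma adjusted p = 0.0298). Its paralog Fabp5, the more abundant form with 4.05 to 6.43 times the TPM of Fabp4, fell by 0.55 in WT (0.000111) and by 0.25 in KO (0.0177).

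The genotypes were then compared within each state. In M0, 2 of the 9 genes were called, Abca1 lower and Plin2 higher in KO, where 9.78% of all genes were called, 4.27% lower and 5.5% higher. The libraries of the genotypes did not overlap for 3 genes, Abca1 (lower), Plin2 and Nr1h2 (both higher), against 31.1% of all genes, 14.9% lower and 16.2% higher. Abca1 was 1.65-fold lower in KO (log2 fold change -0.72, SE 0.20, edgeR adjusted p = 0.0432). The gap between the groups was narrow, as library 3 of WT had 67.3 CPM and library 3 of KO 64.3 CPM. The call was lost without libraries 1 or 2 of WT (edgeR adjusted p = 0.128 and 0.116) and without libraries 1, 2 or 3 of KO (0.145, 0.127 and 0.0908), and without library 3 of WT the adjusted p was 0.00566. The log2 fold change itself lay between -0.92 (without library 3 of WT) and -0.48 (without library 1 of WT). Only 4 of 8 other settings kept the call.

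Plin2 was 1.25-fold higher in KO M0 (log2 fold change 0.33, SE 0.08, edgeR adjusted p = 0.0285). All 3 KO libraries stood above the WT libraries. The call was lost without library 2 of WT (edgeR adjusted p = 0.11) and without libraries 2 or 3 of KO (0.0948 and 0.108), and 6 of 8 other settings kept it. Plin3, a further droplet coat gene, was higher in KO M0 by 0.27 (SE 0.05, 0.00956), whereas Fitm2, a gene of droplet formation, was lower (-0.42, SE 0.10, 0.02).

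Of the genes not called in M0, Apoe had the largest difference, -1.84 on the log2 scale (SE 0.63, edgeR adjusted p = 0.0883). The groups overlapped, since library 3 of WT with 167 CPM lay below library 1 of KO with 209 CPM. Without a filter on low counts Apoe was called, with -1.83 (edgeR adjusted p = 0.0332). Without library 3 of WT, Apoe had -2.24 (edgeR adjusted p = 0.0304) and Mylip -0.49 (0.01), while in the full fit Mylip had -0.33 (SE 0.13, 0.136). Without library 1 of WT, Abcg1 had 0.49 (0.0218) and Lpl 0.22 (0.049), against 0.33 (SE 0.13, 0.131) and 0.14 (SE 0.07, 0.249) in the full fit. In WT M0, library 1 was highest and library 3 lowest for Abca1, Apoe, Mylip and Lpl alike. Leaving out other single libraries weakened these values, to -1.44 for Apoe (0.2) and -0.19 for Mylip (0.381) without library 1 of WT, to 0.07 for Lpl (0.523) without library 3 of WT and to 0.26 for Abcg1 (0.349) without library 2 of WT. Nr1h3 (0.02, 0.952), Nr1h2 (0.07, 0.454) and Fabp4 (0.18, 0.432) were not called in M0.

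Markers of other cells moved with some of these values. The summed level of 8 neutrophil genes was 45.3, 49.7 and 19.8 TPM in WT M0, and 15.6, 16.9 and 16.1 TPM in KO M0. The WT library lowest in Apoe had the lowest WT sum, whereas the KO library highest in Apoe had the lowest KO sum. Of these genes Ly6g was at 0, and Mpo, Elane and Cxcr2 were below 1 TPM, in every library. The sum of 7 fibroblast genes was 11.7 to 21.9 TPM in WT M0 and 3.49 to 13.2 TPM in KO M0, with Dcn, Lum and Pdgfra below 1 TPM throughout. The part of these cells in the differences of Apoe, Abca1 and Mylip was not tested.

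In M2, edgeR called 0 of the 9 genes between the genotypes, where 2.68% of all genes were called (1.21% higher, 1.46% lower), and DESeq2 and limma also called 0. An unadjusted p under 0.05 was found for 3 of them, Apoe, Abcg1 and Lpl, against 2611 of the 12846 genes. The libraries did not overlap for 2 genes, Mylip and Lpl, both lower in KO, against 24.8% of all genes, 11.7% lower and 13.1% higher. Apoe had -1.80 on the log2 scale (SE 0.63, edgeR adjusted p = 0.141), with the same overlap of library 3 of WT and library 1 of KO as in M0. Lpl had -0.23 (SE 0.07, 0.109), as the 3 KO libraries lay below the 3 WT libraries. Abcg1 had 0.34 (SE 0.12, 0.138), nearly the same size as in M0, and here library 1 of KO overlapped library 3 of WT. The other values were -0.35 for Abca1 (0.404), -0.27 for Mylip (0.302), -0.11 for Plin2 (0.482), 0.08 for Nr1h3 (0.774), 0.06 for Nr1h2 (0.542) and 0.07 for Fabp4 (0.817). The fibroblast sums were 23.3, 13.3 and 13.2 TPM in WT M2 and 7.15, 11.4 and 3.51 TPM in KO M2, so that the genotypes did not overlap. The neutrophil sums were 31.6, 24.2 and 13.6 TPM in WT M2, in the order of Apoe, and 12.3, 17.6 and 13.6 TPM in KO M2, where the library highest in Apoe had the lowest sum. Their part in the differences of Apoe, Mylip and Lpl was not tested.

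**Figure D3:**
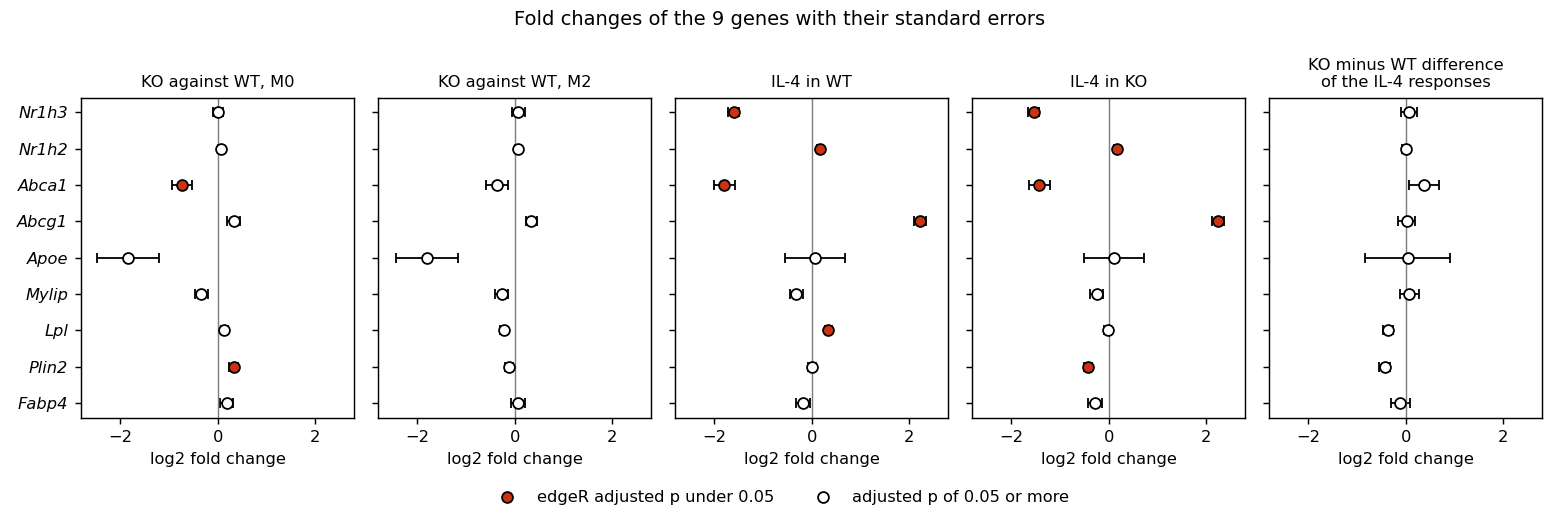
Log2 fold changes of the 9 genes with standard errors in the 5 comparisons, on a common axis, with filled points at an edgeR adjusted p under 0.05. Abcg1, Abca1 and Nr1h3 move alike with IL-4 in WT and KO, Lpl is filled only in WT and Plin2 only in KO, and the difference between the responses has no filled point.

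Whether the response to IL-4 itself differed between the genotypes was tested as an interaction. EdgeR called 0 of the 9 genes, where 3.24% of all genes were called (1.11% higher, 2.13% lower), and 2 had an unadjusted p under 0.05, Plin2 and Lpl. DESeq2 called these 2 (adjusted p = 0.0149 for Lpl and 0.00915 for Plin2), limma called 0, and edgeR without a filter on low counts called Plin2 (0.0365). For Lpl the KO response minus the WT response was -0.36 (SE 0.10, edgeR adjusted p = 0.0735), and for Plin2 it was -0.44 (SE 0.12, 0.0652). With the libraries of the same genotype and number as pairs, both were called, Lpl with -0.36 (SE 0.06, 0.00975) and Plin2 with -0.44 (SE 0.11, 0.0425), where the pairs raised the number of called genes from 416 to 1003. In single pairs Lpl changed by 0.22, 0.45 and 0.36 on the log2 scale in WT and by -0.01, 0.02 and -0.08 in KO. Plin2 changed by 0.10, 0.10 and -0.21 in WT and by -0.21, -0.54 and -0.57 in KO. The third WT pair and the first KO pair thus gave the same value for Plin2, while for Lpl the 3 WT values stood above the 3 KO values. Without library 3 of WT M2 both were called without pairs (edgeR adjusted p = 0.0393 and 0.0255), as was Lpl without library 1 of WT M0 (0.0126) and Plin2 without library 1 of KO M2 (0.0313).

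The responses of the other members were not called as different. Abca1 had 0.37 (SE 0.30, edgeR adjusted p = 0.57), or 0.33 (SE 0.14, 0.182) with pairs. Abcg1 had 0.02 (SE 0.17, 0.976) although its level rose over 4-fold in each genotype, and Nr1h3 had 0.06 (SE 0.16, 0.882). Nr1h2 (-0.01, SE 0.07), Mylip (0.07, SE 0.19), Apoe (0.04, SE 0.87) and Fabp4 (-0.11, SE 0.20) had adjusted p between 0.817 and 0.989.

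**Figure D4:**
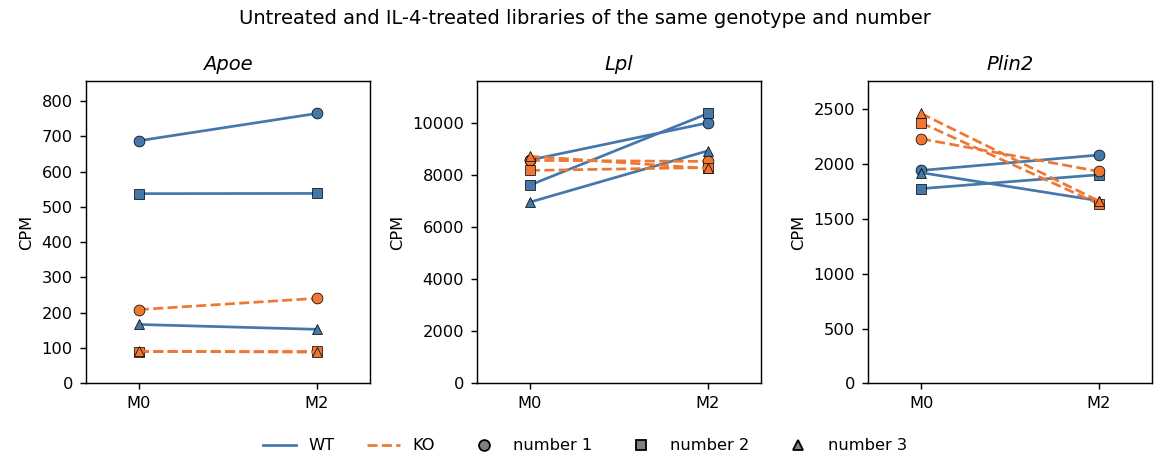
CPM of Apoe, Lpl and Plin2 in M0 and M2, with lines joining the libraries of the same genotype and number (solid for WT, dashed for KO). The Apoe lines run nearly flat at separate heights, all 3 Lpl lines of WT rise while those of KO stay level, and all 3 Plin2 lines of KO fall while those of WT differ in direction.

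The other genes of these pathways were examined in 8 lists with 109 genes in all, of which 85 were fitted. IL-4 raised 22 and lowered 23 of them in WT, together 52.9% against 50% of all genes. In KO it raised 22 and lowered 34, together 65.9% against 52.8%. Between the genotypes, 11 were higher and 7 lower in KO M0 (21.2% against 9.78%), and 4 were higher and 1 lower in KO M2 (5.88% against 2.68%). The response to IL-4 differed for 8 (9.41% against 3.24%), 2 of them with a more positive value in KO. As these lists were drawn up with results of the data known, the shares describe the lists and are not evidence that they stand apart.

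Among 18 other LXR targets that were fitted, IL-4 raised 4 and lowered 7 in WT (24.9% and 25.1% of all genes). In KO it raised 3 and lowered 8 (26.8% and 26% of all genes). Arl4c, a small GTPase, rose by 1.42 (SE 0.05) in WT and 1.80 (SE 0.05) in KO, and the response differed by 0.38 (edgeR adjusted p = 0.016). The lysosomal cholesterol exporter Npc1 rose by 0.78 in WT and 0.50 in KO. The desaturases Fads1 and Fads2 fell in both genotypes, by 0.44 and 1.13 in WT and by 0.51 and 0.98 in KO. Srebf1, the regulator of fatty acid synthesis, had -0.04 in WT (edgeR adjusted p = 0.702) and fell by 0.21 in KO (0.0203). In KO M0, 2 of the 18 were higher and 3 lower (5.5% and 4.27% of all genes), with Eepd1 at 0.28 and Elovl5 at 0.20, and with Cd5l at -0.49 and Arl4c at -0.21. In KO M2 edgeR called 0 of these targets (2.68% of all genes), with 4 at an unadjusted p under 0.05 (2611 of the 12846 genes).

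Of 13 partners and co-regulators, the coactivator Ncoa3 rose with IL-4 in both genotypes, by 1.11 on the log2 scale in KO. It was also higher in KO M0 (0.44, edgeR adjusted p = 0.0109), as was Tbl1xr1, a subunit of the corepressor complex, which was called with 0.56 (9.71e-05). The response of Tbl1xr1 to IL-4 differed by -0.58 (0.00294). Of 6 genes that supply LXR ligands, Ch25h, which makes an oxysterol, rose from 8 to 28 counts per library in M0 to 322 to 1191 in M2. Its log2 fold change was 4.97 (SE 0.31) in WT and 6.76 (SE 0.34) in KO, a difference of 1.79 (SE 0.61) with an adjusted p of 0.141, and its low counts in M0 limit the precision of both. Sc5d of sterol synthesis fell by 0.74 in WT and by 1.06 in KO.

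Among 20 genes of lipoprotein uptake and cholesterol handling, IL-4 raised 5 and lowered 7 in WT (24.9% and 25.1% of all genes). In KO it raised 4 and lowered 9 (26.8% and 26% of all genes). In KO M0, 4 were higher and 2 lower (5.5% and 4.27% of all genes), the latter being Lrp8 (-0.39, edgeR adjusted p = 0.0363) and Olr1 (-1.78, 0.0205), of which Olr1 averaged under 1 CPM and is named after its values were seen. Lrp8, a receptor of apolipoprotein E, fell with IL-4 by 1.78 in WT and 1.46 in KO. The scavenger receptor Msr1 fell by 0.97 in WT and 1.23 in KO and was higher in KO than in WT in both states (0.60, edgeR adjusted p = 0.000402, and 0.35, 0.0257). Soat1, which esterifies cholesterol for storage, rose with IL-4 by 0.73 in WT and 0.31 in KO and was higher in KO M0 (0.45, 0.00168). The sterol transfer protein genes Stard4 and Gramd1b and Soat1 had more negative responses in KO, with differences of -0.68 (0.012), -0.63 (0.0132) and -0.42 (0.0279). Stard4 was lower in KO M2 (-0.51, 0.0157). The uptake receptor Cd36 rose in both genotypes, by 0.77 and 0.55.

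Of 9 droplet genes, 4 rose in WT and 6 in KO with IL-4, and 0 fell by edgeR, also at an unadjusted p under 0.05, where 24.9% of all genes rose and 25.1% fell in WT and 26.8% and 26% in KO. Plin2, which also coats droplets and fell in KO, is a member and not counted in this list. Hilpda, an inhibitor of triglyceride lipolysis, rose by 1.09 in WT and 1.33 in KO and was higher in KO M2 (0.31, edgeR adjusted p = 0.0119). Plin3 rose by 0.63 in WT and 0.29 in KO, with a difference of -0.35 (0.03). Among the 9 it was the gene called for the difference, and at an unadjusted p under 0.05 the differences of Hilpda (0.24, adjusted p = 0.0861 in edgeR) and Fitm2 (0.39, 0.167) had the opposite sign. Pnpla2, the triglyceride lipase, was higher in KO M2 by 0.25 (0.0498). Of 12 genes of fatty acid binding and uptake, Acsl1 fell with IL-4 by 1.08 in WT and 0.63 in KO, a difference of 0.45 (0.0424), and was lower in KO M0 (-0.44, 0.00423). Of 6 partners of lipoprotein lipase, edgeR called 0 between the genotypes in either state, where 9.78% of all genes were called in M0 and 2.68% in M2. At an unadjusted p under 0.05 there were 0 in M0 and 1 in M2, against 3252 and 2611 of the 12846 genes. Lmf2, a homolog of the lipase maturation factor Lmf1, fell with IL-4 by 0.71 in WT and 0.53 in KO. Pparg rose with IL-4 by 0.77 in WT and 0.64 in KO, and Ppargc1b by 1.13 and 1.09, while Ppard was higher in KO M2 by 0.58 (0.0176).

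**Figure D5:**
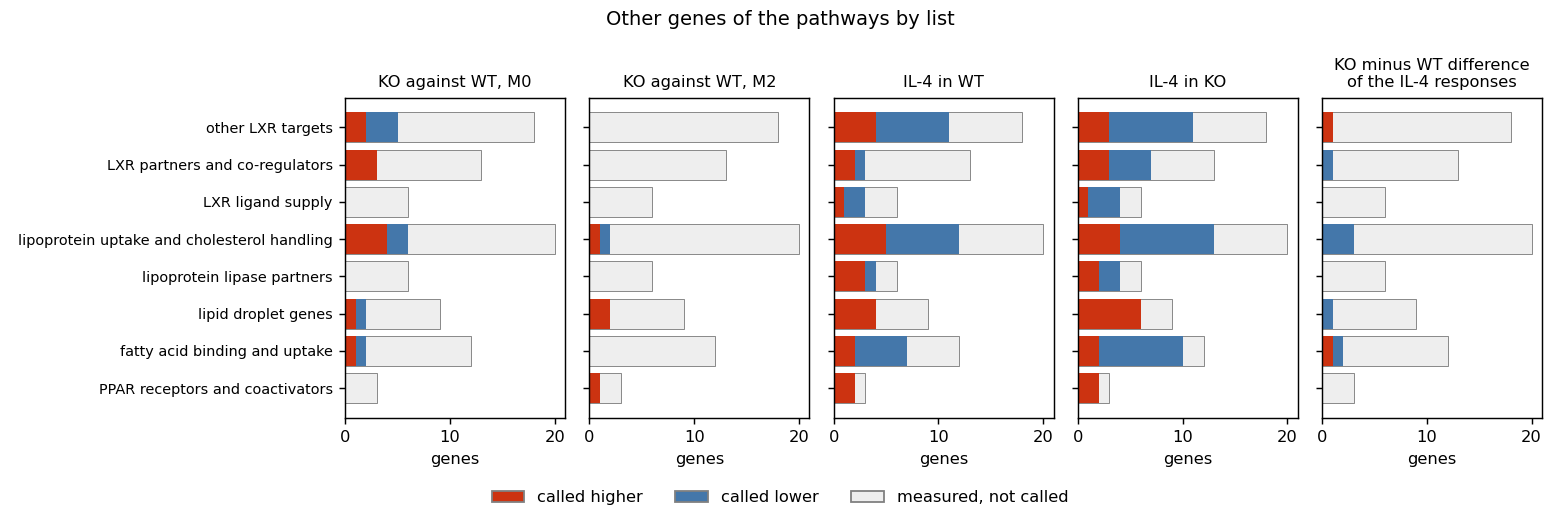
Number of genes called higher (red), called lower (blue) and measured but not called (grey) in each of the 8 lists for the 5 comparisons, by edgeR at an adjusted p under 0.05. With IL-4 the lists hold genes of either direction except the droplet list, which does not count Plin2, and the PPAR list with 3 fitted genes.

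Last, the genes whose pattern over the 12 libraries was most like that of each member were listed from 9737 genes, by Pearson's r of log2 CPM. These values describe libraries that share treatment groups, and for the members that IL-4 changed they mainly follow M0 and M2. Nr1h3 was nearest to Fgd3 and Smox (both 0.993), Abcg1 to Tmem273 and Lrp12 (both 0.994) and Abca1 to Ulk2 (0.988) and Fmnl3 (0.985). Lpl was nearest to Asph (0.979), with means of 232 CPM in M0 and 331 in M2 for WT, and of 265 and 259 for KO, and to Ddx17 (0.935). Plin2 was nearest to Insig1 (0.905), the sterol-sensing anchor of SREBP processing, with means of 72.9 and 73.7 CPM for WT and of 84.5 and 62.0 for KO, and to Mocos (0.894). Apoe was nearest to Ghitm (0.933) and Nptn (0.916), Nr1h2 to Htra2 (0.975) and H2-T23 (0.954), and Mylip to Siae (0.932) and Zfp46 (0.931). Fabp4 was nearest to Lsm14b (0.881) and Ufd1 (0.86), the lowest values of the set.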

How the data were processed

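Poly(A) RNA of 12 BMM libraries was sequenced as single reads after directional preparation. The authors checked reads with FastQC 0.11.2 and aligned them to GRCm38/mm10 by the Grape-nf pipeline, and whether strand was used in counting is not given in the sources used here. The deposited tables give expected counts per gene, without normalization, and TPM, which the authors' pipeline scaled for transcript length and library size. The authors' DESeq2 1.40.2 tables hold fold changes and p-values and served only to give symbols. The members and gene lists were chosen with earlier results of these data known.

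Expected counts were rounded to whole numbers. After edgeR's filterByExpr filter, 12846 genes were fitted over the 4 groups with TMM factors and quasi-likelihood tests in edgeR 4.0.16 (R 4.3.3), with Benjamini-Hochberg adjustment over all fitted genes and a threshold of 0.05. The common biological coefficient of variation was 8.08%. Named genes were the 9 members, fixed partners and paralogs (Rxra, Rxrb, Srebf1, Pparg, Fabp5 and Plin3) and, from every list and comparison, up to 4 called genes with the smallest adjusted p among those averaging 1 CPM or more. The 2 genes most like each member were taken from genes averaging 5 CPM or more. Some genes that this rule names are not reported here. The steps were tested on simulated data. Alternatives were DESeq2 1.42.0, limma 3.58.1 on log2 TPM with pseudocounts of 1 and 0.1, other size factors and filters, only the 2 groups compared, blocks, and fits without single libraries. Deviations from group means correlated between M0 and M2 libraries of the same genotype and number (r from 0.103 to 0.364). These numbers were therefore taken as pairs in the block alternative for IL-4, while the main fit used no pairs. WT and KO libraries of one number gave -0.068 to 0.040 and were not taken as pairs. P-values measure the spread between these libraries.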

Additional observations from a re-analysis of the deposited data

Results flagged for a closer look

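The response to IL-4 of Lpl and of Plin2 differed between WT and KO when libraries of the same genotype and number were treated as pairs. The KO response minus the WT response was -0.36 on the log2 scale for Lpl (SE 0.06, edgeR adjusted p = 0.00975) and -0.44 for Plin2 (SE 0.11, edgeR adjusted p = 0.0425). Without pairs neither passed the threshold in edgeR (0.0735 and 0.0652) or limma, whereas DESeq2 called both (0.0149 and 0.00915) and edgeR without a filter on low counts called Plin2 (0.0365).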

How the results depend on the processing

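In M0, members called between the genotypes were 0 with limma at either pseudocount (all genes 752 and 700), 1 with only the 2 groups fitted and 3 without a filter, which added Apoe, against 2 of 9 and 1256 of all genes. In M2 all genes called were 716 with DESeq2, 70 and 57 with limma and 165 with only the 2 groups fitted, against 344. For the difference of responses, members called were 2 with DESeq2, 1 without a filter and 2 with pairs as a block, and all genes 820 with DESeq2, 113 with limma at either pseudocount and 1003 with the paired block. Across genotypes, where the numbers do not pair libraries, a block on library number called 1 member in M2 and 2 in M0, among them Apoe (-1.72, edgeR adjusted p = 0.00966, in M0; -1.69, 0.0255, in M2), while Abca1 lost its call (0.0655). The pairs changed no other call of a member than those given for Mylip, Lpl and Plin2.

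Leaving out single libraries gave 0 to 4 members and 461 to 1461 genes in M0, 25 to 298 genes in M2, and 0 to 2 members and 183 to 643 genes for the difference of responses. Values that changed sign belonged to members that were not called there. With limma these were Nr1h2 in M2 (-0.0616 and -0.0622), Apoe with IL-4 in WT (-0.0754 and -0.0756), Plin2 with IL-4 in WT (-0.0576 at both pseudocounts) and Abcg1 for the difference (-0.0049 and -0.0181). Plin2 with IL-4 in WT also gave -0.0056 without a filter, -0.0073 with the stricter filter and -0.0018 with the paired block. Without single libraries the ranges were -0.0105 to 0.0796 for Nr1h3 in M0, -0.0127 to 0.2219 for Nr1h3 and -0.0416 to 0.1856 for Fabp4 in M2, -0.4239 to 0.4902 for Apoe and -0.0742 to 0.0858 for Plin2 with IL-4 in WT, and -0.5314 to 0.6184 for Apoe with IL-4 in KO. For the difference they were -0.0283 to 0.2058 for Nr1h3, -0.0591 to 0.0338 for Nr1h2, -0.1478 to 0.1074 for Abcg1, -0.5979 to 0.5515 for Apoe, -0.0816 to 0.2177 for Mylip and -0.227 to 0.0014 for Fabp4. The causes were not tested. Nr1h3 and Fabp4 had the fewest counts, 66 to 450 and 119 to 381 per library.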
